A study of Zea mays with 18 samples.

Results

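The regulators described here are 5 genes that encode transcription factors of the maize storage program: o2 (Zm00001d018971), pbf1 (Zm00001d005100), nac128 (Zm00001d040189), nac130 (Zm00001d008403) and o11 (Zm00001d003677). They were taken by feature ID from 46430 annotated features. Their levels were read in 18 RNA-seq libraries of starchy endosperm and aleurone, cut by laser microdissection from maize (Zea mays) kernels 19 days after pollination. The starchy endosperm is the inner storage tissue, and the aleurone is the endosperm's outermost cell layer. All plants were in the inbred W22 background, were grown in the field and were self-pollinated. Each compartment was sampled from r1-m3, from R1-sc and from R1-g, which the series design gives as the wild type, with 3 biological replicates each. Neither the number of kernels behind a library nor any link between equally numbered libraries of the 2 compartments is given in the labels.

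Zein and starch genes of the endosperm are switched on by a small network of transcription factors. Opaque2, the product of o2, is a bZIP protein that activates alpha-zein genes, and PBF1 is a Dof protein that binds the prolamin box of zein promoters and partners Opaque2. NAC128 and NAC130 are related NAC-family proteins that activate both zein and starch genes, and Opaque11 is a bHLH protein placed upstream of o2 and pbf1. The R1 locus, at which the genotypes differ, encodes another bHLH protein, which controls anthocyanin pigment.

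Feature totals ranged from 12.5 to 20.4 mega-counts (M) per library. Levels are given as CPM (counts in each M of the library's feature total, after TMM scaling), and a gene was called where edgeR's quasi-likelihood test gave a Benjamini-Hochberg adjusted p under 0.05 over the 19111 features tested. All 5 regulators passed the filter on low counts. Of 490 features with at least 200 counts in 1 of r1-m3 aleurone replicates 1 and 2 and 0 in the other, replicate 3 held 490, against 46.2% to 80.5% in the corresponding comparisons within the other groups. It held 0 features at that level that were absent from both, against 4 to 274 in the other groups. Fewer features differed in this way between replicate 3 and replicate 2 (134, all present in replicate 1) or between replicate 3 and replicate 1 (164, all present in replicate 2). Counts of this kind are what a mixture of replicates 1 and 2 would give, and how replicate 3 was made is not given in the labels. It is left out of every fit, mean and range below (17 libraries, n = 2 in r1-m3 aleurone), and its values are given beside the others. None of the 49 entries of the marker and pathway lists could be paired with a feature ID, so the compartment labels were not checked against marker genes. The 20 features highest in starchy endosperm, none of them a regulator, took 52.3% to 57.9% of counts in the starchy endosperm libraries and 23.6% to 34.3% in the aleurone libraries, a direction that their choice fixed and that is no check of the labels.

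**Figure D1:**
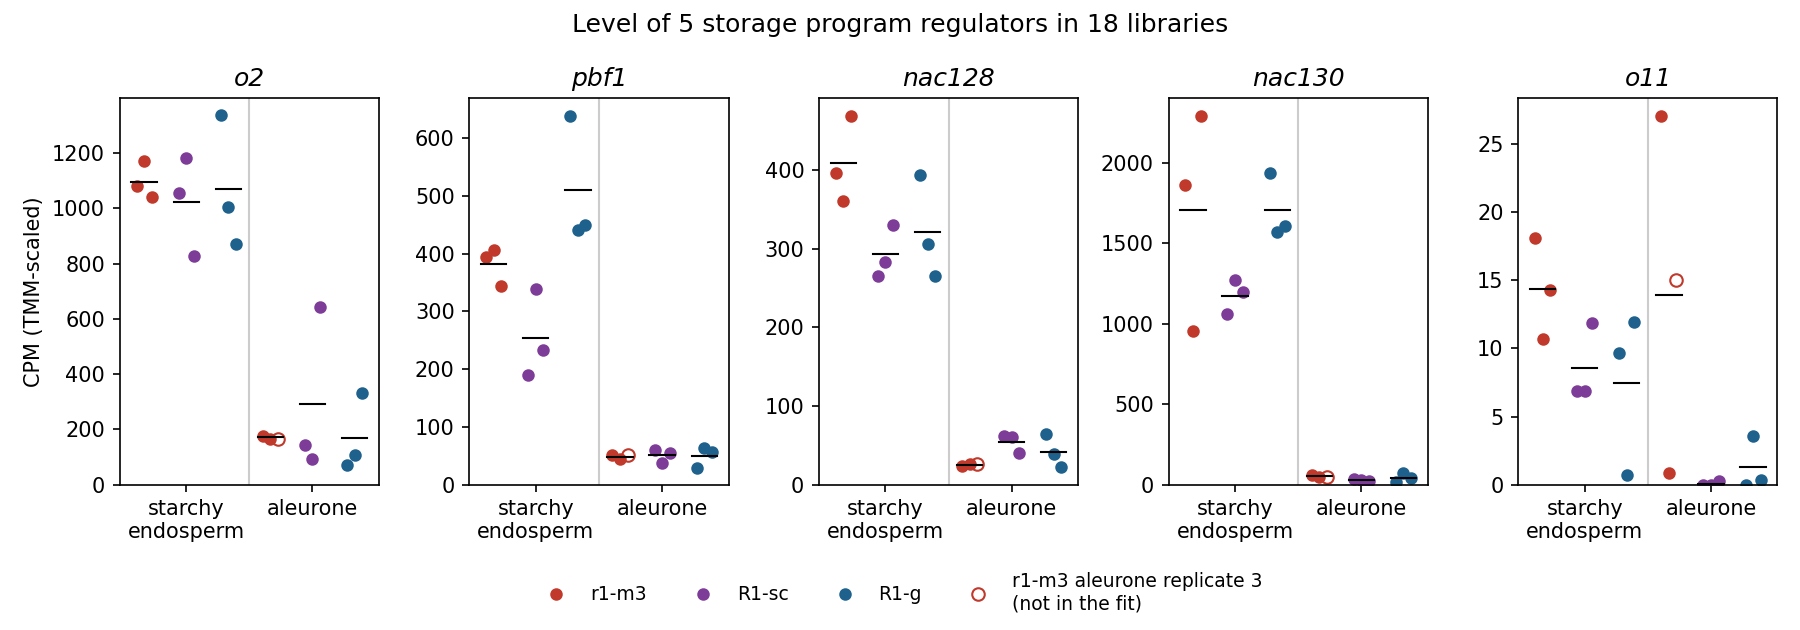
Level of each regulator (CPM, TMM-scaled, linear axis from 0) in every library, with starchy endosperm left of aleurone and a line at the mean of each group. For o2, pbf1, nac128 and nac130 every starchy endosperm library lies above every aleurone library, and o11 has 1 high aleurone library at 27.0 CPM in r1-m3.

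The first comparison asks in which compartment the regulators are expressed. With the 3 genotypes averaged, 4 of the 5 genes (o2, pbf1, nac128 and nac130) rose in the starchy endosperm relative to the aleurone, and 13.4% of all features tested did so. For these 4 genes the starchy endosperm library was the higher in all 72 pairs of a starchy endosperm and an aleurone library, and 4.4% of all features tested separated in that direction. The same 4 genes were called in each genotype on its own, which makes 12 of 15 tests, where the share of features called higher was 1.58% in r1-m3, 4.33% in R1-sc and 3.74% in R1-g. In bulk tissue, a smaller number of expressing cells and less RNA per cell cannot be told apart. The log2 fold changes of the 5 genes ran from 2.38 (o2) to 5.21 (nac130), beside a median of -0.57 over all features tested. The median of the 5, at 3.06, was the value of o11, which was not called.

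**Figure D2:**
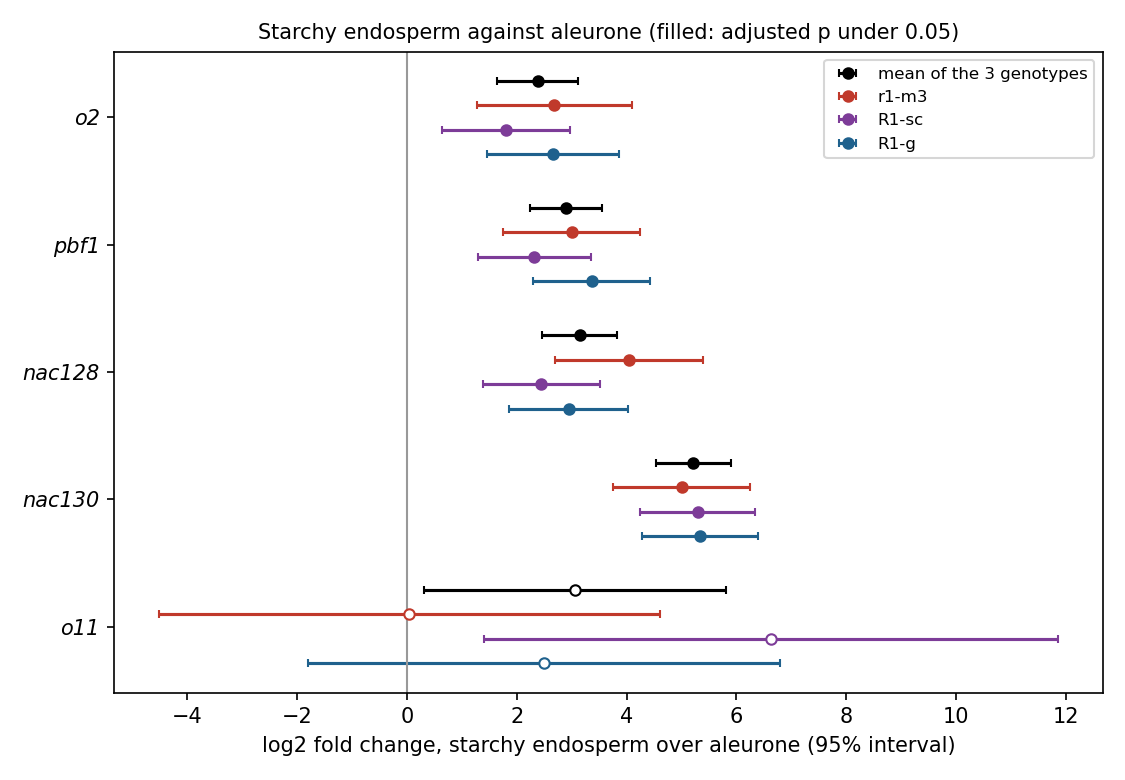
log2 fold change of starchy endosperm over aleurone for each regulator, averaged over the genotypes and in r1-m3, R1-sc and R1-g, with 95% intervals and filled symbols where the gene was called. The values of nac130 lie between 5.003 and 5.34, those of o2, pbf1 and nac128 between 1.80 and 4.04, and no test of o11 was called.

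The NAC gene nac130 showed the widest separation of the 5. Its starchy endosperm libraries stood at 1866, 958 and 2290.5 CPM in r1-m3, at 1060.1, 1270.3 and 1197 CPM in R1-sc and at 1937, 1569 and 1609 CPM in R1-g (replicates 1 to 3). Its aleurone libraries stood at 59.6 and 46.7 CPM in r1-m3, with 47.1 in the left-out replicate, at 37.2, 30.2 and 22.6 CPM in R1-sc and at 17.7, 69.5 and 38.9 CPM in R1-g. The lowest starchy endosperm library was thus 13.8 times as high as the highest aleurone library. Over the genotypes, nac130 was 37.1-fold higher in the starchy endosperm (edgeR log2 fold change 5.21 with SE 0.333, adjusted p = 1.11e-12). The fold was 32.1 in r1-m3, 39.2 in R1-sc and 40.6 in R1-g, and the call in each genotype was kept whichever single library was left out.

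Its relative nac128 followed at a smaller ratio. In the starchy endosperm it stood at 397, 360.5 and 469 CPM in r1-m3, at 265, 284 and 331 CPM in R1-sc and at 393, 306 and 265 CPM in R1-g. In the aleurone it stood at 23.2 and 26.4 CPM in r1-m3, with 26.1 in the left-out replicate, at 61.3, 60.1 and 39.8 CPM in R1-sc and at 63.9, 39.4 and 22.0 CPM in R1-g. The groups of each genotype lay far apart, and the aleurone libraries spanned 2.90-fold among themselves. Over the genotypes, nac128 was 8.84-fold higher in the starchy endosperm (edgeR log2 fold change 3.14 with SE 0.334, adjusted p = 3.56e-08). By genotype the fold was 16.5 in r1-m3, 5.46 in R1-sc and 7.69 in R1-g, and the difference between genotypes was not called.

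The Dof gene pbf1 had starchy endosperm levels of 394, 407 and 344 CPM in r1-m3, 190.3, 339 and 232 CPM in R1-sc, and 639, 442 and 450.4 CPM in R1-g. In the aleurone it stood at 51.7 and 43.7 CPM in r1-m3, with 50.5 in the left-out replicate, at 60.8, 37.2 and 54.4 CPM in R1-sc and at 28.4, 64.0 and 56.6 CPM in R1-g. The aleurone levels of the 3 genotypes overlapped, and the starchy endosperm levels did not. No genotype comparison of pbf1 was called by edgeR. In the starchy endosperm, 5.08% to 7.74% of all features lay apart in the same direction, depending on the pair of genotypes. Over the genotypes, pbf1 was 7.43-fold higher in the starchy endosperm (edgeR log2 fold change 2.89 with SE 0.320, adjusted p = 7.27e-08). The fold was 8.003 in r1-m3, 4.995 in R1-sc and 10.3 in R1-g. In r1-m3 the call was lost without aleurone replicate 2 (log2 fold change 2.88, adjusted p = 0.0760).

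The bZIP gene o2 spanned a narrow range of levels in the starchy endosperm and a wide one in the aleurone. Its starchy endosperm libraries stood at 1079, 1170.0 and 1043 CPM in r1-m3, at 1056, 1183 and 828 CPM in R1-sc and at 1336, 1007 and 872 CPM in R1-g. Its aleurone libraries stood at 176 and 167 CPM in r1-m3, with 166 in the left-out replicate, at 144, 92.8 and 644 CPM in R1-sc and at 70.6, 106 and 331 CPM in R1-g. Between the lowest and the highest library the level differed 1.61-fold in the starchy endosperm and 9.13-fold in the aleurone, where replicate 3 of R1-sc and replicate 3 of R1-g were the high ones. Over the genotypes, o2 was 5.21-fold higher in the starchy endosperm (edgeR log2 fold change 2.38 with SE 0.358, adjusted p = 1.09e-05).

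By genotype the fold of o2 was 6.41 in r1-m3 (edgeR adjusted p = 0.0190), 3.48 in R1-sc (0.0415) and 6.33 in R1-g (0.00384). In R1-sc the call did not hold without aleurone replicate 1 (adjusted p = 0.133) or 2 (0.126), or without starchy endosperm replicate 1 (0.0869), 2 (0.108) or 3 (0.0626), with log2 fold changes of 1.40 to 1.93. Without aleurone replicate 3, the high library, it held, and the log2 fold change was 3.11 (0.000629) in place of 1.80. It was also lost with only the 6 R1-sc libraries in the fit (0.0764) and with DESeq2 (0.0716). In r1-m3 it was lost without aleurone replicate 1 (0.145) or 2 (0.167), while the log2 fold change stayed between 2.63 and 2.72 whichever library was left out. In R1-g the call was kept whichever single library was left out, and without aleurone replicate 3 the log2 fold change was 3.60 in place of 2.66.

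The bHLH gene o11 had far fewer counts than the others and was not called in any compartment comparison. In the starchy endosperm it stood at 18.1, 10.7 and 14.3 CPM in r1-m3, at 6.89, 6.85 and 11.8 CPM in R1-sc and at 9.64, 0.726 and 11.9 CPM in R1-g. In the aleurone of r1-m3 it stood at 27.0 CPM (675 counts) in replicate 1 and 0.818 CPM (18 counts) in replicate 2, with 15.0 CPM in the left-out replicate. In R1-sc aleurone it had 0, 0 and 5 counts, and in R1-g aleurone 0, 71 and 8 counts. A count of 0 allows up to 0.133 CPM in replicate 1 of R1-sc and of R1-g and 0.162 CPM in replicate 2 of R1-sc, with 3 counts as the floor for counting error. The compartments overlapped in r1-m3 and R1-g and lay apart in R1-sc, as they did in that direction for 13.3% of all features tested.

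Over the genotypes, o11 had a log2 fold change of 3.06 (SE 1.34; edgeR, adjusted p = 0.0782). The libraries decided this value: without r1-m3 aleurone replicate 1 it was 4.41 (adjusted p = 0.123), without R1-g aleurone replicate 2 it was 3.99 (0.0321), without R1-sc aleurone replicate 3 it was 4.21 (0.0236), and with all 18 libraries it was 3.05 (0.0361). DESeq2 called the gene (log2 fold change 2.95, adjusted p = 0.00981), and it called 41.2% of the 17321 features it tested in this comparison. In R1-sc alone the log2 fold change was 6.63 (edgeR adjusted p = 0.0904, DESeq2 0.00113), in R1-g it was 2.50 (edgeR 0.477) and in r1-m3 it was 0.05 (edgeR 1). DESeq2 called 27.4% of its features in R1-sc. Single libraries moved these values too: the log2 fold change was 10.1 in R1-sc without aleurone replicate 3, 5.29 in R1-g without aleurone replicate 2 and 4.12 in r1-m3 without aleurone replicate 1, none of them called by edgeR.

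The size of these differences depends on the scaling. In the comparison over genotypes, the median log2 fold change of all features was -0.57 with TMM factors and -1.46 when library totals alone set the scale. On library totals the log2 fold changes were 1.47 for o2, 1.94 for pbf1, 2.18 for nac128 and 4.27 for nac130, all still called. Measured from the median of all features, they were 2.95, 3.46, 3.71 and 5.78 with TMM factors and 2.93, 3.41, 3.65 and 5.74 without them. In R1-sc, library totals left 1 of the 5 genes called, nac130, with adjusted p = 0.205 for o2, 0.0592 for pbf1 and 0.0522 for nac128. In r1-m3 they ended the call of o2 (0.119).

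**Figure D3:**
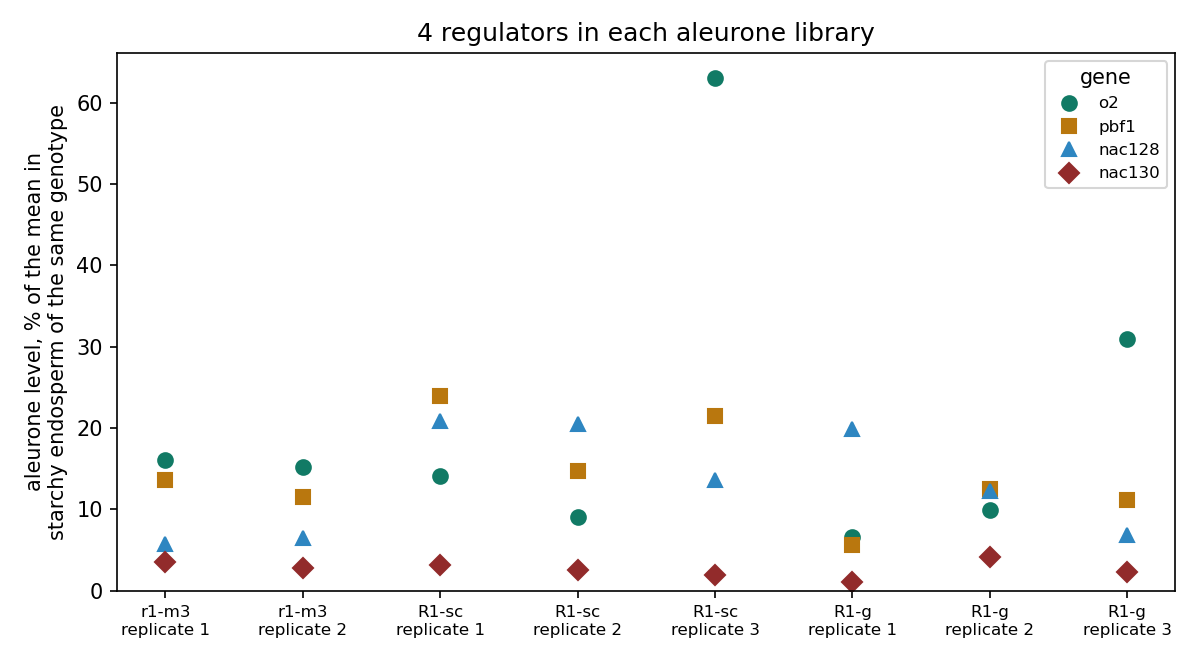
Level of 4 regulators in each of 8 aleurone libraries as a percent of their mean in the starchy endosperm of the same genotype. nac130 stays between 1.04% and 4.07%, while o2 reaches 63.0% in R1-sc replicate 3 and 30.9% in R1-g replicate 3.

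The aleurone levels of o2 and nac130 did not move together from one library to the next. As a share of the starchy endosperm mean of its own genotype, the aleurone level was 6.59% to 63.0% for o2 (median 14.6%), 5.57% to 23.9% for pbf1 (median 13.0%), 5.67% to 20.9% for nac128 (median 12.9%) and 1.04% to 4.07% for nac130 (median 2.65%), over 8 libraries. In R1-sc aleurone replicate 3, where o2 stood at 63.0%, nac130 stood at 1.92%, the lowest of its group. By multidimensional scaling, which places libraries by their distances, this library lay apart from all others. It stood at -5.52 on dimension 2, and the others lay between -0.76 and 2.41. The part of this deviation of the whole library in its o2 level was not tested. In R1-g aleurone replicate 3, where o2 stood at 30.9%, nac130 stood at 2.28%, between the other libraries of its group. The 20 features highest in starchy endosperm took 26.0% of counts in this R1-sc library, against 25.7% and 34.3% in the other R1-sc aleurone libraries. They took 33.8% in R1-g aleurone replicate 3, against 23.6% and 32.6% in the other R1-g aleurone libraries, and their part in the level of o2 was not tested. Without R1-sc aleurone replicate 3, the log2 fold change of o2 between R1-sc and R1-g aleurone turned from 0.79 to -0.52, and neither value was called.

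Over the 9 starchy endosperm libraries, log2 CPM of nac130 had a Pearson correlation of 0.52 with pbf1, of 0.10 with o2, of 0.59 with nac128 and of 0.12 with o11. Over the 8 aleurone libraries the corresponding values were 0.65, -0.06, -0.57 and 0.77. Between o2 and pbf1 it was 0.46 over the starchy endosperm libraries and 0.52 over the aleurone libraries. These values describe few libraries, which share a genotype within each group of replicates.

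**Figure D4:**
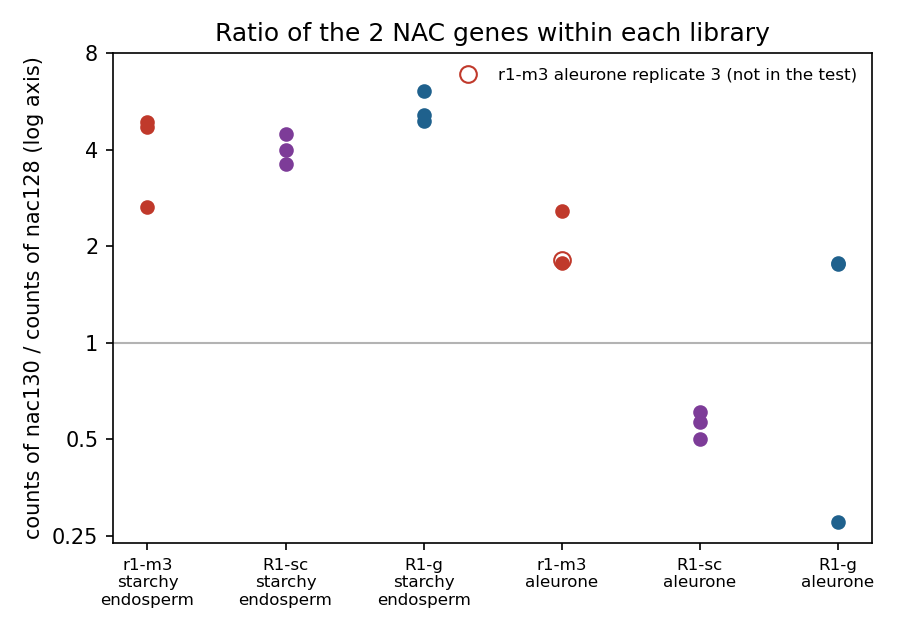
Counts of nac130 divided by counts of nac128 within each library (log axis), with starchy endosperm left of aleurone. The ratio is 2.66 to 6.07 in the starchy endosperm and 0.277 to 2.57 in the aleurone.

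The ratio of nac130 to nac128 within a library does not depend on the scaling, and a change in it between compartments does not depend on gene length. The 2 were compared because they belong to the same family. The ratio restates their folds over the genotypes (37.1 for nac130 and 8.84 for nac128), so its p adds no separate evidence. Ratios of other gene pairs were not tested for comparison. The ratio of counts was 2.66 to 6.07 in the 9 starchy endosperm libraries (median 4.70) and 0.277 to 2.57 in the 8 aleurone libraries (median 1.18), without overlap. Within genotypes it was 4.21-fold higher in the starchy endosperm (log2 difference 2.08, two-sided exact permutation of the libraries within genotypes, p = 0.0005 from 4000 relabellings). In R1-sc aleurone the 3 libraries lay close together, at 0.502 to 0.607. In R1-g aleurone they ranged from 0.277 to 1.77, and in r1-m3 aleurone they were 1.77 and 2.57. Reads that aligned to several places (42.2% to 55.0% of the table totals) were given to no feature. Reads from a stretch that the 2 NAC genes share may thus be missing from both counts. The part of such reads in the ratio was not tested.

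The ratios of o2 and of pbf1 to nac130 also lay without overlap between the compartments, and that of nac130 to o11 overlapped. The ratio of o2 to nac130 was 0.455 to 1.22 in the starchy endosperm and 1.53 to 28.5 in the aleurone. The ratio of pbf1 to nac130 was 0.150 to 0.425 in the starchy endosperm and 0.868 to 2.41 in the aleurone. The ratios among o2, pbf1 and nac128 overlapped between the compartments. Every ratio that lay apart contains nac130, whose fold over the genotypes was 37.1, against 5.21 to 8.84 for o2, pbf1 and nac128. These ratios therefore largely restate the difference of nac130, and ratios of other features to nac130 were not compared.

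The genotype comparisons ask whether the level of a regulator differs with the allele at R1, in each compartment separately. None of the 30 tests (5 genes in 6 comparisons) was called by edgeR, with 2 at an unadjusted p under 0.05 and 1 called by DESeq2. In the starchy endosperm 0.0209% of all features were called for r1-m3 over R1-g, and 0.0262% both for r1-m3 over R1-sc and for R1-sc over R1-g. In the aleurone the corresponding shares were 0.199%, 0.0733% and 0.283%. DESeq2 called 2.23% to 7.10% of its features in these comparisons, and 4% in the one of its call, r1-m3 over R1-sc in the aleurone. A p that misses the threshold does not show equal levels. The 95% intervals of the log2 fold changes give how large a difference the fit leaves possible. They rest on a spread estimated for each gene over all 6 groups and drawn toward that of other features. They therefore do not measure the spread of the compared libraries alone.

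**Figure D5:**
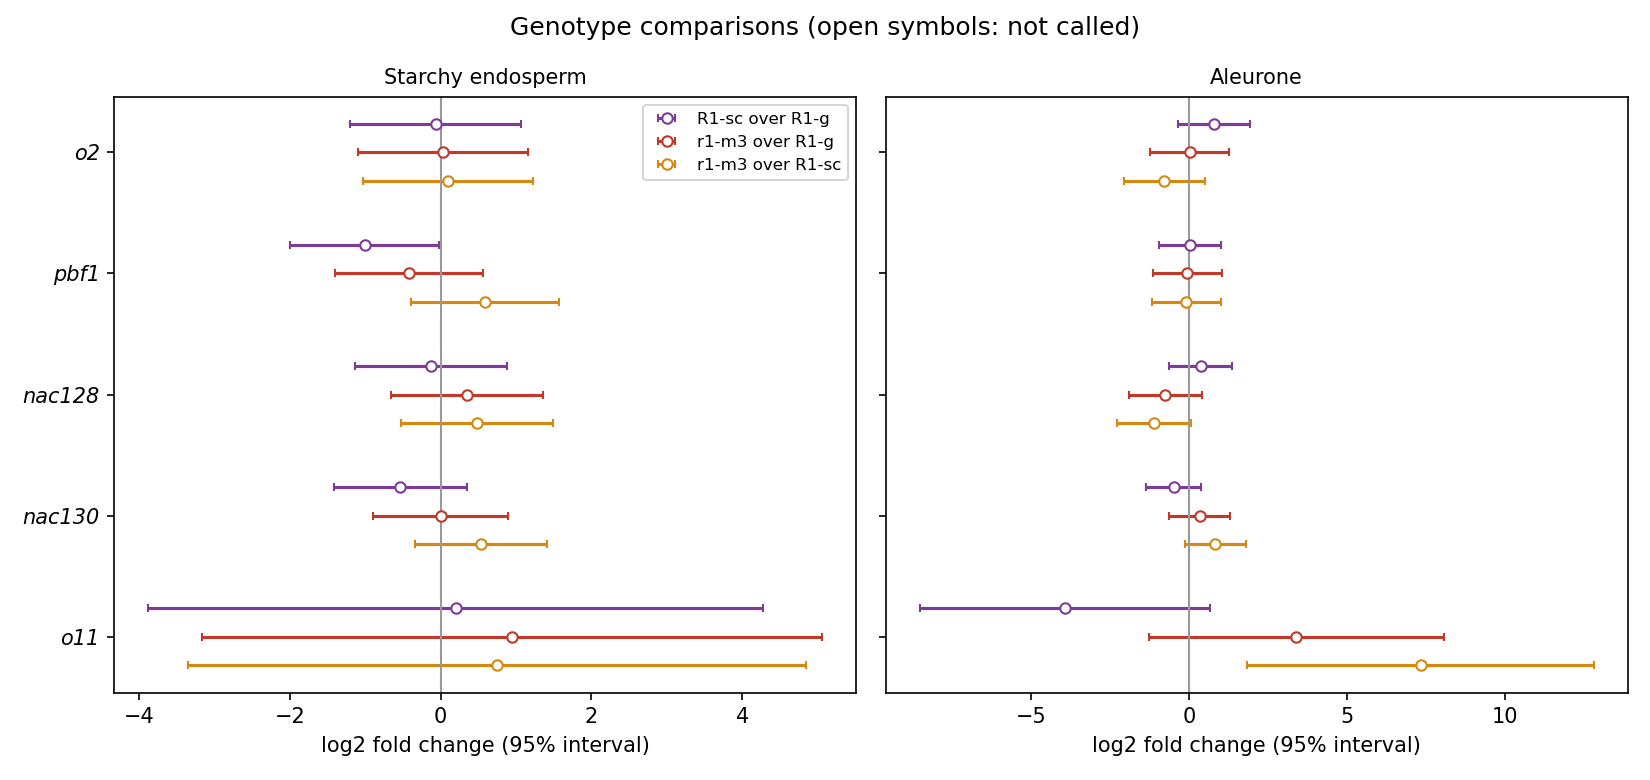
log2 fold change between genotypes for each regulator, in the starchy endosperm and in the aleurone, with 95% intervals; open symbols mark values that were not called. The intervals of o2, pbf1, nac128 and nac130 lie between -2.28 and 1.93, and those of o11 reach from -8.54 to 12.8.

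In the starchy endosperm, pbf1 gave the lowest unadjusted p. It averaged 254 ± 76.9 CPM in R1-sc and 510.5 ± 112 CPM in R1-g (SD, n = 3 each), and the libraries of these groups did not overlap. The log2 fold change of R1-sc over R1-g was -1.01 (95% interval -2.00 to -0.02, unadjusted p = 0.0462, edgeR adjusted p = 0.840). Of all features tested, 5.54% had an unadjusted p under 0.05 in this comparison and 7.74% lay apart in this direction. With r1-m3 at 382 ± 33.0 CPM (n = 3), the 3 genotypes ranked R1-g, r1-m3 and R1-sc from high to low without overlap. The log2 fold change was -0.42 for r1-m3 over R1-g (interval -1.40 to 0.56) and 0.59 for r1-m3 over R1-sc (interval -0.39 to 1.57). Of all features tested, 7.21% lay apart with r1-m3 below R1-g and 5.08% with r1-m3 above R1-sc.

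The starchy endosperm levels of nac130 were also lower in every R1-sc library than in every R1-g library, as were 7.74% of all features tested. Its means were 1176 ± 107 CPM in R1-sc and 1705 ± 202 CPM in R1-g (SD, n = 3 each), with a log2 fold change of -0.54 (95% interval -1.42 to 0.34, edgeR adjusted p = 1). In r1-m3 it averaged 1705 ± 681 CPM, with a range that covered both other genotypes. For nac128 the r1-m3 libraries, at 409 ± 55.5 CPM, lay above the R1-sc libraries, at 293 ± 34.0 CPM, and overlapped the R1-g libraries, at 321 ± 65.6 CPM (SD, n = 3 each). The log2 fold change of nac128 was 0.48 for r1-m3 over R1-sc (interval -0.53 to 1.49), and 5.08% of all features tested lay apart in that direction.

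The level of o2 in the starchy endosperm was close in the 3 genotypes, at 1097 ± 65.5 CPM in r1-m3, 1023 ± 180 CPM in R1-sc and 1072 ± 239 CPM in R1-g (SD, n = 3 each). Its log2 fold changes were 0.03 for r1-m3 over R1-g (95% interval -1.09 to 1.16), 0.10 for r1-m3 over R1-sc (interval -1.03 to 1.23) and -0.07 for R1-sc over R1-g (interval -1.19 to 1.06). A difference of about 2-fold in either direction therefore lies within these intervals. They use a spread estimated over all 6 groups, aleurone included. The SD of o2 was 5.97% to 22.3% of the mean in the starchy endosperm groups. It was 83.6% in R1-g aleurone and 104% in R1-sc aleurone. How wide the intervals would be from the starchy endosperm spread alone is not given here. For o11 the means were 14.4 ± 3.68 CPM in r1-m3, 8.53 ± 2.87 CPM in R1-sc and 7.43 ± 5.92 CPM in R1-g, and the ranges of r1-m3 and R1-sc each overlapped that of R1-g.

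In the aleurone, pbf1 was close in the 3 genotypes, at 47.7 ± 5.65 CPM in r1-m3 (n = 2), 50.8 ± 12.2 CPM in R1-sc and 49.7 ± 18.8 CPM in R1-g (SD, n = 3). The 2 NAC genes lay apart between r1-m3 and R1-sc in opposite directions. The gene nac128 averaged 24.8 ± 2.27 CPM in r1-m3 and 53.7 ± 12.1 CPM in R1-sc (log2 fold change -1.12, 95% interval -2.28 to 0.05, edgeR adjusted p = 0.537). The gene nac130 averaged 53.1 ± 9.10 CPM in r1-m3 and 30.0 ± 7.28 CPM in R1-sc (log2 fold change 0.83, interval -0.14 to 1.79, edgeR adjusted p = 0.589). Of all features tested, 5.41% lay apart with r1-m3 lower and 13.9% with r1-m3 higher. In R1-g aleurone nac128 averaged 41.8 ± 21.0 CPM and nac130 averaged 42.0 ± 26.0 CPM (SD, n = 3), and the R1-g range of each covered those of r1-m3 and R1-sc.

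The aleurone level of o11 differed by the largest ratio and with the widest interval. Its counts were 693 over the 2 r1-m3 libraries, 5 over the 3 R1-sc libraries and 79 over the 3 R1-g libraries. The log2 fold change of r1-m3 over R1-sc was 7.33 (95% interval 1.85 to 12.8, unadjusted p = 0.0106, edgeR adjusted p = 0.493, DESeq2 adjusted p = 0.00634), in a comparison where 9.62% of all features had an unadjusted p under 0.05. Without r1-m3 aleurone replicate 1, which held 675 of the 693 counts, it was 3.26 (edgeR adjusted p = 0.980), and without R1-sc aleurone replicate 3 it was 10.8 (0.455). Against R1-g the log2 fold change of r1-m3 was 3.40 (interval -1.28 to 8.08), and it turned to -0.67 without r1-m3 aleurone replicate 1.

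The interactions ask whether the difference between starchy endosperm and aleurone depends on the genotype. None of 15 tests was called by edgeR or by DESeq2, with 2 at an unadjusted p under 0.05, and edgeR called 0.0785% of all features for r1-m3 against R1-g, 0.00523% for r1-m3 against R1-sc and 0.12% for R1-sc against R1-g. Both of the 2 compare r1-m3 with R1-sc, where 8.4% of all features had such a p. For nac128 the compartment difference was larger in r1-m3, by 1.60 on the log2 scale (SE 0.751, unadjusted p = 0.0425, edgeR adjusted p = 0.569). For o11 it was smaller in r1-m3, with a difference of -6.58 (SE 3.14, unadjusted p = 0.0455, edgeR adjusted p = 0.573). Without r1-m3 aleurone replicate 1 the difference for o11 was -2.51, and without R1-sc aleurone replicate 3 it was -10.04.

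The order of the group means was the same for the compartments in 4 genes. For o2, pbf1, nac128 and nac130 the 3 starchy endosperm groups stood above the 3 aleurone groups, and the lowest starchy endosperm group did not overlap the highest aleurone group. Among the aleurone groups of these 4 genes, neighbours in the order overlapped in every case. For o11, r1-m3 starchy endosperm came first, r1-m3 aleurone next and R1-sc aleurone last, and every neighbour in the order overlapped.

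For each regulator, the 2 features with the most similar profile were taken from 7806 features of at least 10 CPM on average, by the Pearson correlation of log2 CPM over 17 libraries. No file or reference used here names them, and the libraries of a compartment share most of what these values measure. For nac130 they were Zm00001d045392 and Zm00001d035934 (r = 0.985 and 0.984), for pbf1 Zm00001d047738 and Zm00001d053828 (0.976 and 0.974), and for nac128 Zm00001d045412 and Zm00001d020977 (0.964 and 0.963). Of these, Zm00001d053828, Zm00001d045412 and Zm00001d020977 had 0 counts in the 8 aleurone libraries, beside starchy endosperm means of 90.1, 27.3 and 211 CPM. Within the starchy endosperm the correlations were 0.23 and 0.39 for nac130, 0.84 and 0.80 for pbf1, and 0.75 and 0.70 for nac128. Within the aleurone they were 0.74 and 0.47 for nac130, 0.24 and -0.25 for pbf1, and -0.28 for both features of nac128.

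For o2 the most similar features were Zm00001d037719 and Zm00001d041119 (r = 0.960 and 0.959 over 17 libraries). Within the 9 starchy endosperm libraries their correlation with o2 was -0.48 and 0.18, and within the 8 aleurone libraries it was 0.92 and 0.90. The features were chosen for high correlation over libraries that include these 8, which favours high values here. The part of R1-sc aleurone replicate 3, where o2 stood at 644 CPM, in the aleurone values was not tested. Zm00001d041119 averaged 740.1 CPM in the starchy endosperm and 151 CPM in the aleurone. For o11 they were Zm00001d012800 and Zm00001d028370 (r = 0.936 and 0.873). Their correlation with o11 was 0.52 and -0.06 within the starchy endosperm. It was 0.95 and 0.92 within the aleurone, where 1 library held most of the o11 counts.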

How the data were processed

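RNA was isolated from laser-cut tissue with a PicoPure kit, amplified to cDNA from 5 ng with the Ovation system and made into paired-end libraries, per the labels' protocols. The deposited files hold whole-number read counts per feature, 1 table per library, without normalization. The submitters' processing notes name the build B73 RefGen_v4 and these tools: HTSeq 0.11.2, HISAT2, DESeq2, Trimmomatic 0.39, SAMtools and FastQC. Whether counting used strand is not given in the sources used here, so reads of a gene and an antisense partner cannot be told apart. Amplified reads carry no molecular identifiers, so floors cover counting error only.

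Groups follow the labelled genotype and compartment. R 4.3.3 with edgeR 4.0.16 was used for the tests: 19111 features passed filterByExpr with the 6 groups, TMM factors gave the scaling, and robust quasi-likelihood F tests gave 13 contrasts, each adjusted by Benjamini and Hochberg over all features. The fit held 17 libraries as 6 group means. The SE is the log2 fold change divided by the square root of F, and 95% intervals use the test's degrees of freedom. For correlations, a prior count of 2 was added before taking log2 CPM. The scripts were tested on simulated counts. Alternatives were DESeq2 1.42.0, other scalings, no filter on low counts, all 18 libraries, the groups compared alone, a replicate block and leaving out each library.

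The regulators, lists and tests were chosen with earlier results of these data known. The text names the 5 regulators by ID and the 2 features most correlated with each. The names of the regulators are those of the rule that chose them; neither the files nor the RefSeq gene table used here, which is of a later build than the files, pairs these IDs with names. The planned lists of starch, zein and marker genes were not analysed here, as 0 of their 49 entries matched a feature ID.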

Additional observations from a re-analysis of the deposited data

How the results depend on the processing

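For o2, pbf1, nac128 and nac130, the difference between starchy endosperm and aleurone over the genotypes kept its direction and its call under every alternative run, and for nac130 this held in each genotype too. With library totals in place of TMM factors, 1 of the storage regulators was called in R1-sc, where TMM factors gave 4. The median log2 fold change of all features there was -0.55 with TMM factors and -1.37 with library totals. Measured from that median, o2 stood at 2.35 with TMM factors and 2.34 with library totals. The corresponding values were 2.87 and 2.81 for pbf1 and 3.00 and 2.97 for nac128. The cause of the lost calls was not tested. With 1 library left out, 2 to 4 were called in r1-m3, where leaving out an aleurone library leaves 1 in that group, assumed to vary like the other groups. DESeq2 called 1 of the storage regulators, o11, between r1-m3 and R1-sc aleurone, where it called 693 of 17321 features (4%).

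Directions that turned belong to differences that were not called in either setting. For o11 in r1-m3, starchy endosperm over aleurone, the log2 fold change was -0.0568 with DESeq2, -0.0567 with its size factors and -1.11 with library totals, and -0.92 to 4.12 with 1 library left out. For o2, DESeq2 or its size factors gave 0.139 (R1-sc over R1-g) and -0.0129 (r1-m3 over R1-sc) in starchy endosperm and -0.0654 (r1-m3 over R1-g) in aleurone. For nac128 they gave 0.0534 (R1-sc over R1-g, starchy endosperm). With only the groups compared, o2 gave 0.0601 (R1-sc over R1-g, starchy endosperm) and -0.0040 (r1-m3 over R1-g, aleurone), which was -0.0033 with all 18 libraries. With library totals, pbf1 in aleurone gave 0.15 (r1-m3 over R1-g) and 0.14 (r1-m3 over R1-sc).

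With 1 library left out, the ranges in starchy endosperm were -0.25 to 0.0414 for nac128, -0.34 to 0.72 for o11 and -0.20 to 0.12 for o2 (R1-sc over R1-g), -0.27 to 0.29 for nac130 and -0.0945 to 0.23 for o2 (r1-m3 over R1-g), and -0.0300 to 0.22 for o2 (r1-m3 over R1-sc). In aleurone they were -0.85 to 0.0841 for nac130, -0.52 to 1.73 for o2 and -0.25 to 0.26 for pbf1 (R1-sc over R1-g). For r1-m3 over R1-g in aleurone they were -0.0257 to 0.91 for nac130, -0.67 to 6.20 for o11, -0.35 to 0.95 for o2 and -0.34 to 0.17 for pbf1. For r1-m3 over R1-sc in aleurone they were -1.19 to 0.53 for o2 and -0.25 to 0.0557 for pbf1.

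Over 40 pairs of same-numbered libraries of different groups, deviations from the group means correlated at -0.08 to 0.02. Of 17 libraries, 7 correlated best with their own number. Between the compartments of a genotype, same-numbered libraries correlated at -0.0019 to 0.0228 (8 pairs, median 0.0039). Libraries of other numbers did so at -0.0253 to 0.0056 (16 pairs, median -0.0019). No chance level was computed, so these small values do not decide whether equal numbers mark paired libraries. With the replicate number as a block, 4 of the storage regulators were called over the genotypes, 12 of 15 tests within genotypes and 0 between genotypes by edgeR, as without it (2 at an unadjusted p under 0.05 without the block, 1 by DESeq2). The block moved the calls over all features from 6550 to 5647 over the genotypes. DESeq2 called 3022 features in r1-m3, 4744 in R1-sc and 3717 in R1-g between the compartments, against 880, 1942 and 1387 by edgeR. The low counts of o11 and the use of only 2 libraries of r1-m3 aleurone limit what can be detected.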
